A study of Mus musculus with 8 samples.

Results

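The genes described here encode the core machinery that makes and uses microRNAs and small interfering RNAs in mouse cells: the 4 Argonaute genes Ago1, Ago2, Ago3 and Ago4, the nuclear processing genes Drosha and Dgcr8, the export receptor gene Xpo5, and the cytoplasmic processing genes Dicer1, Tarbp2 and Prkra. They were chosen by gene symbol, and all 10 were found among the 19938 genes that a single-symbol transcript cluster of the array named. Each gene was read on the cluster with the highest mean over the 8 arrays. Ago2 and Tarbp2 had a second cluster each, which is given beside the first.

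The levels come from total RNA of round spermatids, which are haploid germ cells that have just left meiosis, purified on albumin gradients from testes of adult C57BL/6 mice, and pooled over the gradient fractions that held them. The mice differed at Piwil1, the gene of the piRNA-binding protein MIWI. MIWI -/- mice had only null alleles. MIWI -/KI mice had a null allele beside a knock-in allele, MIWI +/KI mice a wild-type allele beside a knock-in allele, and MIWI +/- mice, the controls, a wild-type allele beside a null allele, so that no group had wild-type alleles alone. The labels do not say what the knock-in allele changes. The study's title names LINE1 silencing and the catalytic activity of MIWI as its subject. Each genotype had 2 arrays, called biological replicates in the titles. The number of animals behind an array was not stated in the labels, and the p-values cover only the variation from one preparation to the next, which may be technical.

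MicroRNAs start as long primary transcripts. The nuclease DROSHA and its RNA-binding partner DGCR8 cut a hairpin out of them in the nucleus, exportin 5, the product of Xpo5, carries the hairpin to the cytoplasm, and DICER1, with the double-stranded RNA-binding proteins TRBP (from Tarbp2) and PACT (from Prkra), trims it to a short duplex. An Argonaute protein keeps a strand of that duplex and uses the bases near its 5′ end, the seed, to find target mRNAs. Endogenous small interfering RNAs of germ cells need DICER1 and Argonautes but not DROSHA and DGCR8. Argonautes and PIWI proteins such as MIWI are sister branches of the same protein superfamily. PIWI proteins take up piRNAs, whose making does not use DICER1.

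The seed is shown on 3 microRNAs of the miR-34 and miR-449 families, which are known from male germ cells of meiosis and after. Their mature sequences are given 5′ to 3′ as RefSeq lists them on build GRCm38.p6, with the seed, bases 2 to 8, in capitals.
mmu-miR-34b-5p: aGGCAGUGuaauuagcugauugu
mmu-miR-449a-5p: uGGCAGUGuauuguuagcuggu
mmu-miR-449c-5p: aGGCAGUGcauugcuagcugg
The seed was the same in all 3, so an Argonaute loaded with any of them would read the same seed matches. Mir34b lies on chromosome 9, where this sequence runs over chr9:51103610-51103632 on the minus strand. Mir449a and Mir449c lie on the plus strand of chromosome 13, with these sequences at chr13:113037549-113037570 and chr13:113036008-113036028.

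Ago3, Ago1 and Ago4 are neighbours on chromosome 4, in this order and with no other gene between them in RefSeq, while Ago2 lies on chromosome 15. For Ago1, Ago4 and Ago3, the 250 bases before the transcript start that RefSeq's promoter table lists first are shown, because the first 2 of these genes stood higher in every array without a wild-type Miwi allele than in any array with one, and the adjacent Ago3 did not. RefSeq's gene records also take in transcript models that start further upstream, so the stretches of Ago1 and Ago4 lie partly, and that of Ago3 wholly, within the gene's full span. All 3 are on the minus strand of GRCm38.p6 and are printed 5′ to 3′ along the gene's strand, with every TGACG (the core of the cyclic AMP response element, which the spermatid factor CREM binds) and every CCAAT in capitals, on either strand, so that CGTCA and ATTGG are capitals as well.
Ago1, chr4:126468632-126468881: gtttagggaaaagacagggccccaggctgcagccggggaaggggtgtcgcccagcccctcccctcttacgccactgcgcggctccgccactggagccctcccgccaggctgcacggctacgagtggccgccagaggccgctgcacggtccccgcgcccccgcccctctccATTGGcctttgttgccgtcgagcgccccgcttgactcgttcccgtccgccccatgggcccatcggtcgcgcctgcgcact
Ago4, chr4:126533459-126533708: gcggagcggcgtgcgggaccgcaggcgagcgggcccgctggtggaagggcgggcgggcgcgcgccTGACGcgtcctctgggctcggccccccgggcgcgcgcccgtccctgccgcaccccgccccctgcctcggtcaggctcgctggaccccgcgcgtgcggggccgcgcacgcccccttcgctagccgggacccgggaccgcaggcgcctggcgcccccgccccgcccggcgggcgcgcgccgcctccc
Ago3, chr4:126429543-126429792: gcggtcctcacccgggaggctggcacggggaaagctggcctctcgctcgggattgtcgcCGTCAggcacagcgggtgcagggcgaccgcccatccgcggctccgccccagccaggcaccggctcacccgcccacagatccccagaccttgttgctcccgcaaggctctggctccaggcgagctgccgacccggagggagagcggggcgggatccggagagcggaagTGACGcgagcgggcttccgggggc
G and C made up 72.4% of the bases before Ago1, 85.6% of those before Ago4 and 73.6% of those before Ago3, against a median of 52% over the 27025 promoters of the table. Of the 9 machinery genes with a promoter there, which do not include Ago2, 5 held TGACG (17.9% of all promoters did) and 5 held CCAAT (34.5%). The shares over all promoters were not matched for G and C content, and enrichment was not tested. The whole element TGACGTCA was in none of the 9 and in 1.62% of all promoters. TGACGTCA contains TGACG, and neither contains CCAAT.

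Array medians lay between 66.6 and 71.8 on the linear intensity scale, and precision is limited by there being 2 arrays of each genotype. Piwil1 had intensities of 196 and 151 in MIWI -/- arrays, 672 and 696 in MIWI -/KI arrays, 680 and 749 in MIWI +/KI arrays, and 389 and 371 in MIWI +/- arrays. The labels do not say which exons the null allele lost or where the probes lie, so this is no full check of the label. Round spermatid markers such as Acrv1 (2910 to 3960), Acr (1430 to 2630) and Spaca1 (1220 to 2200) were bright on all arrays. Some spermatocyte markers were bright too, such as Syce1 (1680 to 1960) and Smc1b (1100 to 1730). Others, such as Ccnb3 (43 to 97.9) and Stra8 (59.9 to 87.1), were dim. These levels are therefore no measure of purity. Of 45 measured markers of somatic cells, 20 lay above the highest array median on every array and 10 below it on every array. The Leydig gene Hsd3b1 (24 to 33.8), the Sertoli gene Fshr (28.5 to 40.3), the endothelial gene Pecam1 (38.5 to 55.8) and the macrophage gene Cd14 (28.8 to 39.9) were dim, while Cyp17a1 (129 to 395) of the Leydig list, Clu (344 to 729) of the Sertoli list, Dcn (329 to 778) of the stromal list and Aif1 (732 to 1680) of the macrophage list were not. MIWI -/KI replicate 2 stood apart: it correlated with replicate 1 of its genotype at r = 0.970 over all clusters, the lowest of the within-genotype pairs, of which the highest reached 0.995. With MIWI -/- replicate 1 it correlated at 0.9812. Nor was MIWI -/- replicate 2 closest to its own replicate (0.9836): with the MIWI +/KI arrays it reached 0.9855 and 0.9858.

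Signal for Ago1, and for Ago2 on the brighter of its 2 clusters, was higher where the wild-type Miwi allele was missing. That Ago2 cluster was chosen by its mean over all 8 arrays, which include those compared here. The other Ago2 cluster passed the test in no comparison. On the chosen cluster Ago2, the gene of the Argonaute known for cutting its targets, rose by 2.03-fold in MIWI -/- and by 2.25-fold in MIWI -/KI against MIWI +/-. Ago1 rose by 1.74-fold in MIWI -/KI. None of the 6 genes that process or export microRNA precursors passed the test in any comparison. Of the 10 machinery genes, 1 rose and none fell in MIWI -/- against MIWI +/-, and 2 rose and none fell in MIWI -/KI against MIWI +/-. Among all 19938 genes 2.6% rose and 3.53% fell in the first of these comparisons, and 3.11% rose and 3.12% fell in the second. The median log2 fold change of the 10 genes was 0.25 in the first and 0.38 in the second, beside medians of 0.01 and 0 over all genes. In MIWI -/- against MIWI +/-, 6 of the 10 genes had arrays that did not overlap between the genotypes, all higher, namely Ago1, Ago2, Ago4, Dgcr8, Tarbp2 and Xpo5, where 27% of all genes were separated upwards and 22.4% downwards. The same held for 5 genes in MIWI -/KI, Ago1, Ago2, Ago4, Dicer1 and Xpo5, again all higher, beside 23.2% and 18.2% of all genes. The same 5 genes were also separated upwards, and Prkra downwards, in MIWI +/KI against MIWI +/-, although MIWI +/KI has a wild-type allele. The share of all genes was not counted there. All these comparisons use the same MIWI +/- arrays.

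**Figure D1:**
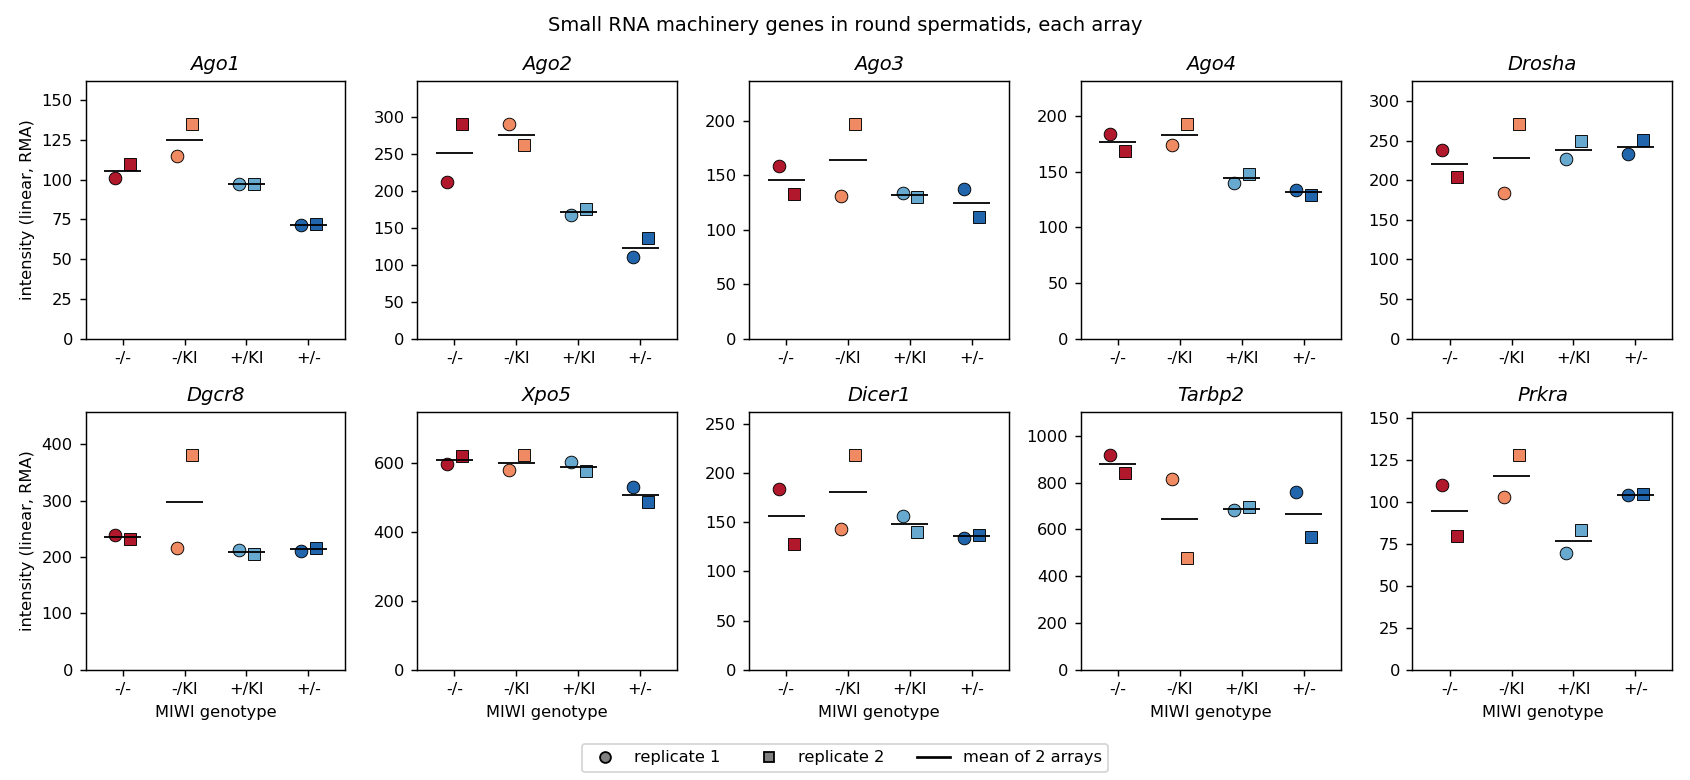
Intensity of the 10 small RNA machinery genes on each of the 8 arrays (linear scale, from 0), by Miwi genotype, with circles for replicate 1, squares for replicate 2 and a bar at the mean of 2 arrays. Ago1, Ago2 and Ago4 lie higher on all 4 arrays without a wild-type allele than on the other 4, and MIWI -/KI replicate 2 is the highest array for 8 of the 10 genes.

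Ago2 had intensities of 213 and 291 on the MIWI -/- arrays, 291 and 262 on the MIWI -/KI arrays, 168 and 176 on the MIWI +/KI arrays, and 110 and 136 on the MIWI +/- arrays. The 4 arrays without a wild-type allele were all above the 4 with one, the MIWI -/- and MIWI -/KI arrays overlapped, and those of MIWI +/KI stood between these and MIWI +/-. The log2 fold change was 1.02 in MIWI -/- against MIWI +/- (SE 0.20, adjusted p = 0.0263) and 1.17 in MIWI -/KI against MIWI +/- (SE 0.20, adjusted p = 0.0145), both by limma with Benjamini-Hochberg adjustment over all clusters. The knock-in allele beside a wild-type allele gave 0.49 against MIWI +/- (SE 0.20, adjusted p = 0.390). MIWI -/KI stood 0.68 above MIWI +/KI, its counterpart with a wild-type allele (SE 0.20, adjusted p = 0.141). MIWI -/KI differed from MIWI -/- by 0.15, with a 95% interval of -0.31 to 0.61. When a limma fit held just the arrays compared, Ago2 passed against MIWI +/- neither in MIWI -/- (adjusted p = 0.065) nor in MIWI -/KI (adjusted p = 0.0571). The call in MIWI -/- was lost without MIWI -/- replicate 2 (adjusted p = 0.141), without either MIWI +/- replicate (0.211 and 0.0994) and without either MIWI +/KI replicate (0.0746 and 0.0747). That in MIWI -/KI was lost without MIWI +/- replicate 1 (0.143) or 2 (0.0671).

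The second Ago2 cluster did not follow the first in MIWI -/KI. On it the intensities were 172 and 220 in MIWI -/-, 146 and 145 in MIWI -/KI, 160 and 171 in MIWI +/KI, and 123 and 125 in MIWI +/-. Here the MIWI -/KI arrays were below those of MIWI +/KI, where on the first cluster they were above. Against MIWI +/- the log2 fold change was 0.65 in MIWI -/- (SE 0.17, adjusted p = 0.0774) and 0.23 in MIWI -/KI (SE 0.17, adjusted p = 0.629). With the mean of both clusters, in a limma fit adjusted over 19938 genes, Ago2 passed the test in both, at 0.84 (adjusted p = 0.00960) and 0.70 (adjusted p = 0.0269). Which part of the transcript each cluster covers was not examined. The clusters had near equal means with a wild-type allele, 123 and 124 in MIWI +/- and 172 and 165 in MIWI +/KI. The first was thus the brighter one through the arrays without that allele, so its choice was not independent of the comparisons.

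**Figure D2:**
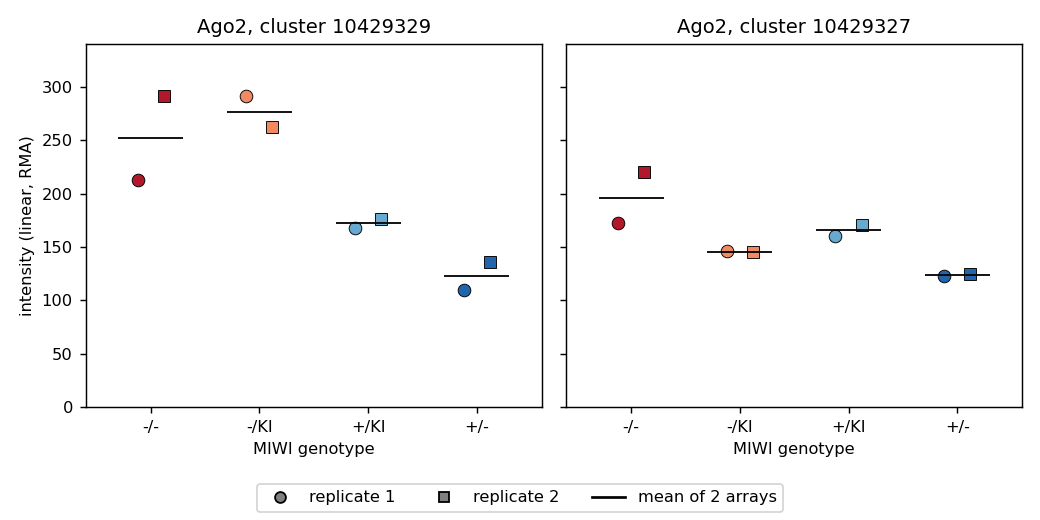
Intensity of the 2 Ago2 clusters on each array (linear scale, the same axis in both panels), by Miwi genotype, with a bar at the mean of 2 arrays. Both clusters are lowest in MIWI +/- (means of 123 and 124), while the MIWI -/KI mean is 276 on cluster 10429329 and 145 on cluster 10429327.

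Ago1, whose product takes up microRNAs and is known as a repressor that does not cut most targets, showed the same order of genotypes. Its intensities were 101 and 110 in MIWI -/-, 115 and 135 in MIWI -/KI, 97.3 and 97.3 in MIWI +/KI, and 71.4 and 71.8 in MIWI +/-. No array of any genotype overlapped an array of another. The log2 fold change was 0.80 in MIWI -/KI against MIWI +/- (SE 0.15, adjusted p = 0.0236) and 0.56 in MIWI -/- (SE 0.15, adjusted p = 0.0901). In MIWI +/KI it was 0.44 (SE 0.15, adjusted p = 0.311), and between MIWI -/KI and MIWI +/KI 0.36 (SE 0.15, adjusted p = 0.299). MIWI -/KI and MIWI -/- differed by 0.24, with a 95% interval of -0.11 to 0.59. When a limma fit held just the arrays compared, the Ago1 call in MIWI -/KI was lost (SE 0.21, adjusted p = 0.152). It was also lost in a limma fit with array weights (adjusted p = 0.0573). The call in MIWI -/KI was lost without MIWI +/- replicate 1 (adjusted p = 0.173) or 2 (0.168) and without MIWI +/KI replicate 1 or 2 (0.0814 each). Without MIWI -/KI replicate 1 or 2, Ago1 also passed in MIWI -/- against MIWI +/- (adjusted p = 0.0329 and 0.0318).

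Ago4, which in mouse spermatocytes has been linked to the silencing of the sex chromosomes, moved less. It had intensities of 184 and 169 in MIWI -/-, 174 and 193 in MIWI -/KI, 140 and 148 in MIWI +/KI, and 134 and 129 in MIWI +/-. The arrays without a wild-type allele again stood above all others. No comparison between genotypes passed the test: the log2 fold change was 0.43 in MIWI -/- (SE 0.15, adjusted p = 0.193) and 0.48 in MIWI -/KI (SE 0.15, adjusted p = 0.137), each against MIWI +/-.

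Ago3, the neighbour of Ago1, had intensities of 158 and 133 in MIWI -/-, 131 and 197 in MIWI -/KI, 134 and 130 in MIWI +/KI, and 137 and 112 in MIWI +/-. All 4 genotypes overlapped. The log2 fold change against MIWI +/- was 0.23 in MIWI -/- (SE 0.22, adjusted p = 0.792) and 0.38 in MIWI -/KI (SE 0.22, adjusted p = 0.511), and the 95% intervals, -0.29 to 0.75 and -0.14 to 0.90, hold changes of the size seen in Ago4.

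With both genotypes of each kind pooled, the comparison of arrays without against with a wild-type allele asks what the 2 losses share. Ago2 rose by 0.85 on the log2 scale (SE 0.14, 1.81-fold, adjusted p = 0.0102) and Ago1 by 0.46 (SE 0.11, 1.37-fold, adjusted p = 0.0444). On the second Ago2 cluster the difference was 0.23 (SE 0.12, adjusted p = 0.380), with overlapping groups, and with the clusters averaged per gene Ago2 stood at 0.54 (adjusted p = 0.0133). Ago4 stood at 0.39 (SE 0.11, adjusted p = 0.0767). It passed with clusters averaged per gene (adjusted p = 0.0470), a fit adjusted over 19938 genes, in which the single Ago4 cluster kept its value of 0.39. Without MIWI -/KI replicate 1, Ago4 stood at 0.43 and Dgcr8 at 0.50. These 2 rises and no fall among 10 genes compare with 4.33% of all genes rising and 3.93% falling. The 4 arrays without and the 4 with a wild-type allele did not overlap for Ago1, Ago2 (first cluster) and Ago4, higher without it in each, and 9.38% of all genes were separated in that direction, with 6.54% in the other. The median over the 10 genes was 0.24, beside -0.01 over all genes. Both calls were lost without MIWI +/KI replicate 1 (adjusted p = 0.216 for Ago1 and 0.0668 for Ago2), MIWI +/KI replicate 2 (0.210 and 0.0564) or MIWI +/- replicate 1 (0.163 and 0.0581). That of Ago1 was also lost without MIWI +/- replicate 2 (0.171) and MIWI -/- replicates 1 and 2 (0.0864 and 0.108).

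**Figure D3:**
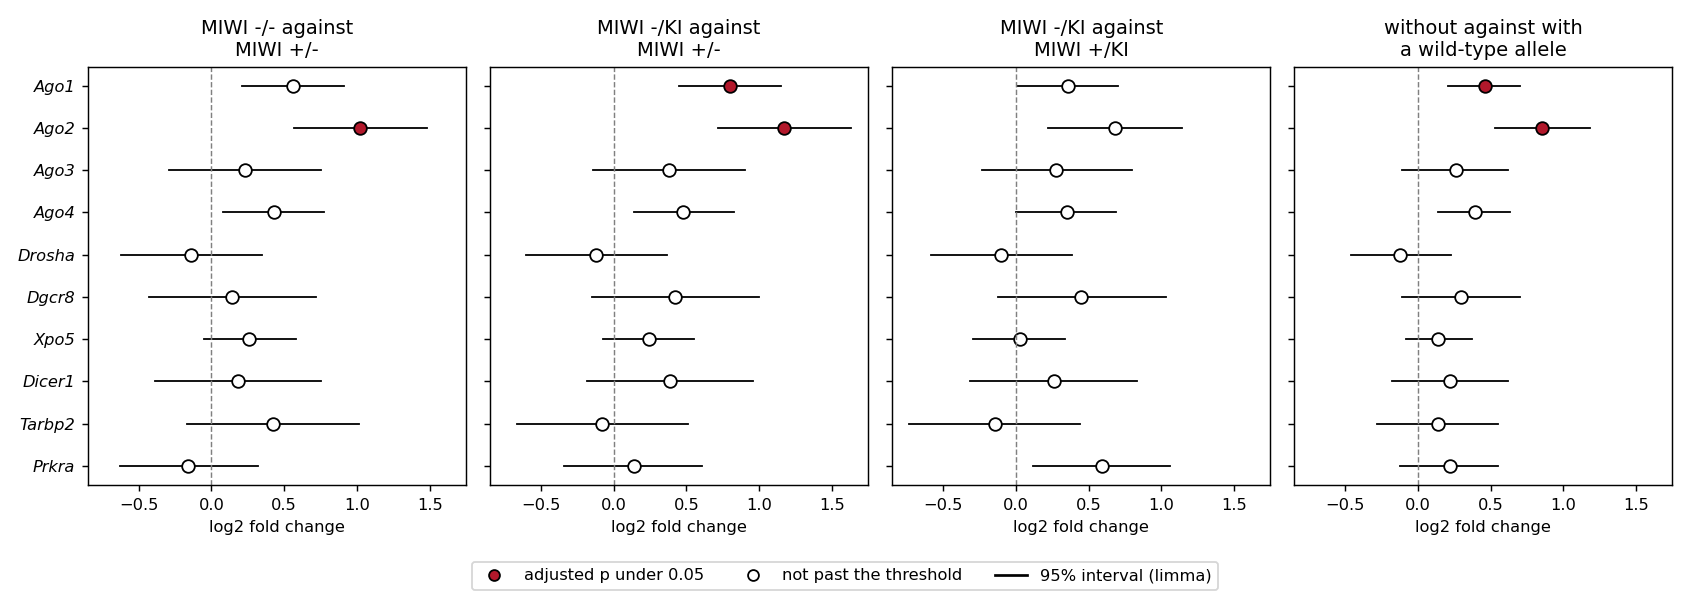
Log2 fold change of the 10 machinery genes in 4 comparisons, with the 95% interval from limma's moderated standard error; filled points passed an adjusted p of 0.05. The filled points are Ago2 (1.02) in MIWI -/-, Ago1 (0.80) and Ago2 (1.17) in MIWI -/KI, both against MIWI +/-, and Ago1 (0.46) and Ago2 (0.85) without against with a wild-type allele.

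The genes of nuclear processing gave no call. Drosha had intensities of 238 and 204 in MIWI -/-, 184 and 271 in MIWI -/KI, 227 and 250 in MIWI +/KI, and 233 and 251 in MIWI +/-. The MIWI -/KI arrays held its lowest and its highest value. Its log2 fold change against MIWI +/- was -0.14 in MIWI -/- (95% interval -0.62 to 0.35) and -0.12 in MIWI -/KI (-0.60 to 0.37).

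Dgcr8 had intensities of 240 and 232 in MIWI -/-, 216 and 381 in MIWI -/KI, 213 and 205 in MIWI +/KI, and 211 and 217 in MIWI +/-. A single array, MIWI -/KI replicate 2, stood far above the rest, which lay between 205 and 240. The log2 fold change in MIWI -/KI against MIWI +/- was 0.42 (SE 0.25, adjusted p = 0.512). It was 0.83 without MIWI -/KI replicate 1 (adjusted p = 0.0144) and 0.01 without replicate 2. In MIWI -/- it was 0.14 (SE 0.25, adjusted p = 0.924).

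Xpo5, the export receptor gene, varied least over the arrays, with a range of 0.36 on the log2 scale. Its intensities were 597 and 620 in MIWI -/-, 578 and 622 in MIWI -/KI, 601 and 576 in MIWI +/KI, and 530 and 485 in MIWI +/-. The MIWI +/- arrays were below all others. The log2 fold change against MIWI +/- was 0.26 in MIWI -/- (95% interval -0.05 to 0.58), 0.24 in MIWI -/KI (-0.07 to 0.55) and 0.22 in MIWI +/KI (-0.10 to 0.53), and none passed the test.

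Dicer1 had intensities of 184 and 128 in MIWI -/-, 143 and 218 in MIWI -/KI, 156 and 140 in MIWI +/KI, and 134 and 137 in MIWI +/-. The replicates of the mutants differed more than the genotypes did. Against MIWI +/-, its log2 fold change was 0.18 in MIWI -/- (95% interval -0.39 to 0.75) and 0.39 in MIWI -/KI (-0.18 to 0.96), so a rise as large as that of Ago1 in MIWI -/KI lies within the second interval.

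Tarbp2 encodes TRBP, which in mouse spermatids is also known to bind protamine mRNA and to be needed for its translation. It had intensities of 918 and 842 in MIWI -/-, 815 and 477 in MIWI -/KI, 684 and 694 in MIWI +/KI, and 762 and 568 in MIWI +/-. Here MIWI -/KI replicate 2 was the lowest array. The log2 fold change was 0.42 in MIWI -/- (SE 0.25, adjusted p = 0.545) and -0.08 in MIWI -/KI (SE 0.25, adjusted p = 0.949), each against MIWI +/-. The second Tarbp2 cluster gave 0.37 and -0.02, with adjusted p = 0.679 and 0.992.

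Prkra, the gene of PACT, an activator of the kinase PKR as well as a DICER1 partner, had intensities of 110 and 79.8 in MIWI -/-, 103 and 128 in MIWI -/KI, 69.7 and 83.3 in MIWI +/KI, and 104 and 105 in MIWI +/-. It was lowest in the MIWI +/KI arrays, apart from an overlap with MIWI -/- replicate 2. The log2 difference between MIWI -/KI and MIWI +/KI was 0.59 (SE 0.21, adjusted p = 0.207), and that between MIWI +/KI and MIWI +/- was -0.45 (SE 0.21, adjusted p = 0.455).

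In the 3 other comparisons, limma called none of the 10 genes. For MIWI -/KI against MIWI +/KI, which asks what the missing wild-type allele does beside a knock-in allele, the values ran between -0.14 (Tarbp2) and 0.68 (Ago2). There 4 genes had an unadjusted p under 0.05, namely Ago1, Ago2, Ago4 and Prkra, all higher, beside 10.3% of all genes higher and 7.57% lower at that unadjusted p. At the adjusted threshold 1.14% of all genes rose and 1.29% fell. For MIWI +/KI against MIWI +/- the values ran between -0.45 (Prkra) and 0.49 (Ago2), with 2 genes, Ago1 and Ago2, at an unadjusted p under 0.05, both higher, beside 6.16% of all genes higher and 5.55% lower at that p. At the adjusted threshold 0.0251% of all genes rose and 0.0702% fell. For MIWI -/KI against MIWI -/- they ran between -0.50 (Tarbp2) and 0.29 (Prkra), with no gene at an unadjusted p under 0.05, beside 2.41% of all genes higher and 2.14% lower, and 0% of all genes passed. The difference between the 2 losses of the wild-type allele, MIWI -/KI minus MIWI +/KI less MIWI -/- minus MIWI +/-, was also called for none of the 10 and for 0% of all genes. Prkra (0.75, SE 0.29, adjusted p = 0.374) was the 1 gene at an unadjusted p under 0.05 there, beside 6.32% of all genes higher and 6.64% lower. Without MIWI -/KI replicate 1, Dgcr8 (0.86, adjusted p = 0.0186) passed in MIWI -/KI against MIWI +/KI, and with array weights Ago1 (0.44, adjusted p = 0.0380) passed in MIWI +/KI against MIWI +/-.

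Replicates of a genotype differed by a median of 0.44 on the log2 scale over the 10 genes in MIWI -/KI, 0.18 in MIWI -/-, 0.06 in MIWI +/KI and 0.08 in MIWI +/-. MIWI -/KI replicate 2 was the highest array for Ago1, Ago3, Ago4, Dgcr8, Dicer1, Drosha, Prkra and, by little, Xpo5 and the lowest for Tarbp2. Spermatocyte markers stood high on that array as well. Over 20 such markers, log2 intensity deviated from the marker's own average by a mean of 0.49 on it, 0.26 on MIWI -/- replicate 1, and between -0.22 and 0.01 on the other arrays. The summed intensity of the 20 markers was 14330 and 11720 in MIWI -/-, 12570 and 15350 in MIWI -/KI, 10310 and 10480 in MIWI +/KI, and 11280 and 10610 in MIWI +/-. For 5 genes, Ago3, Ago4, Dgcr8, Dicer1 and Prkra, the highest and the second highest array were those of the markers, MIWI -/KI replicate 2 and MIWI -/- replicate 1, while Ago2 was highest on MIWI -/- replicate 2 and MIWI -/KI replicate 1, whose spermatocyte deviations were -0.10 and 0.01. Against MIWI +/-, 2 of the 20 markers rose (Piwil2 and Tex101) and 1 fell (Syce2) in MIWI -/-, and 3 rose (also Meioc) and 1 fell in MIWI -/KI. The part of spermatocyte RNA in the Argonaute values was not tested. In these bulk samples, fewer cells of a type and less RNA per cell cannot be told apart.

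Other markers moved with the genotypes too. The summed intensity of 15 round spermatid markers, which include the protamine and transition protein genes, was 18260 and 17310 in MIWI -/-, 21330 and 19480 in MIWI -/KI, 28930 and 27690 in MIWI +/KI, and 35900 and 33570 in MIWI +/-. In MIWI -/- against MIWI +/-, 5 of the 15 fell (Prm1, Prm2, Tnp1, Tnp2 and Tssk2) and 1, Acr, rose. The same 5 fell and none rose in MIWI -/KI against MIWI +/-. The order of genotypes in the sum was near the reverse of that for Ago1 and Ago2, with the mutants low and MIWI +/KI between, but the protamine and transition protein genes carry much of the sum: over all 15 markers the median log2 fold change against MIWI +/- was -0.23 in MIWI -/-, with 4 of 15 above 0, and -0.09 in MIWI -/KI, with 7 of 15 above 0. Sertoli markers, of which 18 of 19 were measured, summed to 2397 and 1900 in MIWI -/-, 2317 and 1823 in MIWI -/KI, 2553 and 3056 in MIWI +/KI, and 3411 and 3098 in MIWI +/-. All 18 were lower than in MIWI +/- in both MIWI -/- and MIWI -/KI, with median log2 fold changes of -0.32 and -0.43. Of them, 3 passed the test in MIWI -/- (Cst12, Aard and Tsx) and 4 in MIWI -/KI (also Defb19). Leydig markers, of which 7 of 9 were measured, summed to 1106 and 538.4 in MIWI -/-, 836.3 and 794.8 in MIWI -/KI, 433.3 and 575.6 in MIWI +/KI, and 598.2 and 479.8 in MIWI +/-. They stood higher without a wild-type allele, apart from MIWI -/- replicate 2. Their median log2 difference without against with a wild-type allele was 0.54, with 6 of 7 above 0, and none of the 7 passed the test. Among 12 stromal markers Acta2 alone passed against MIWI +/-, rising by 0.68 in MIWI -/- and 1.13 in MIWI -/KI. The 12 had medians of 0.01 and -0.05, with 6 above 0 and 6 below in each. Of 8 measured blood and macrophage markers, Aif1 (-1.1 and -1) and Alas2 (-0.92 and -0.88) fell against MIWI +/-. These 8 had medians of -0.08 and 0.04, with 3 above 0 in MIWI -/- and 5 in MIWI -/KI. The part of all these cell type markers in the results was not tested.

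**Figure D4:**
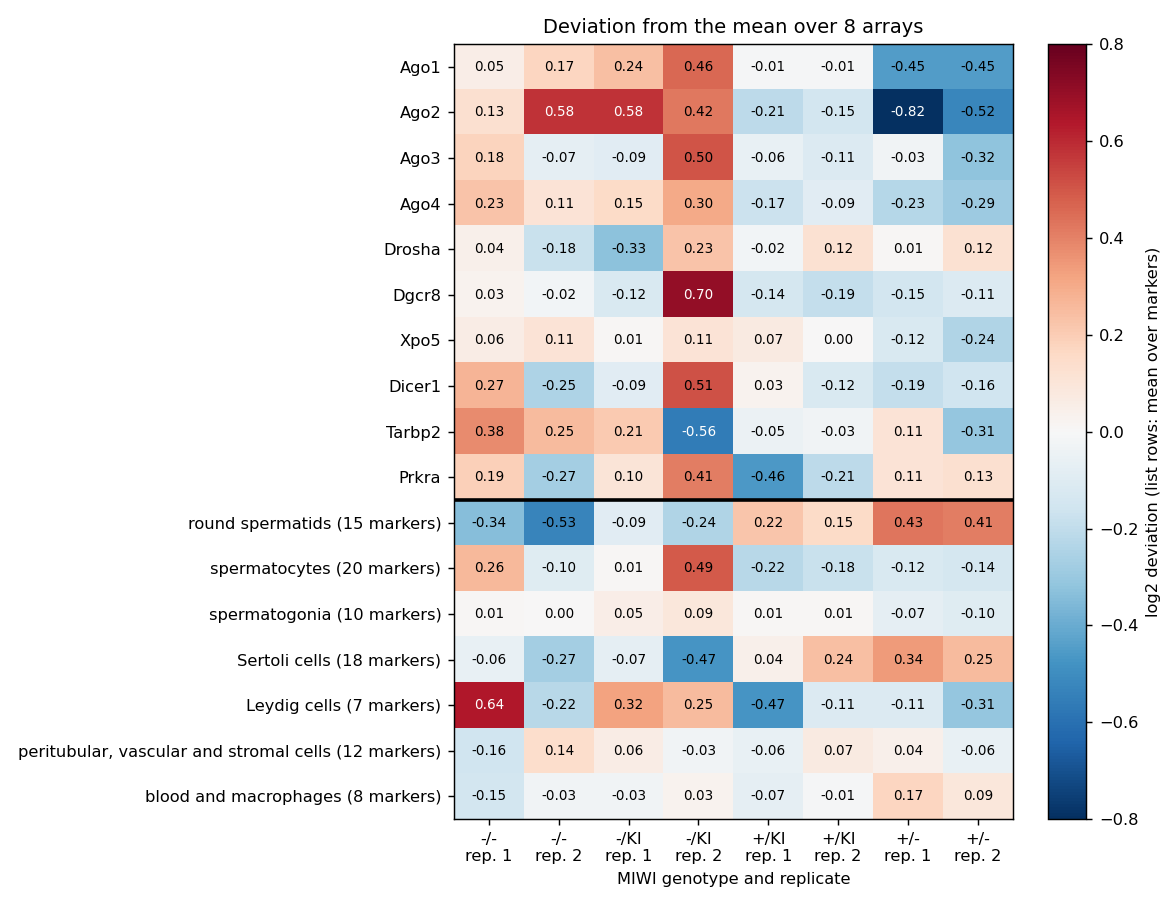
Log2 deviation of each machinery gene (above the line) and mean log2 deviation of each cell type marker list (below it) from the mean over the 8 arrays, by array. MIWI -/KI replicate 2 is high for Dgcr8 (0.70), Dicer1 (0.51), Ago3 (0.50) and the spermatocyte markers (0.49), while Ago2 is high on MIWI -/- replicate 2 and MIWI -/KI replicate 1 (0.58 each).

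By the likeness of their pattern over the 8 arrays, as Pearson's r of log2 intensity, the named genes closest to Ago2 were Sh3bp2 (r = 0.984), Stx2 (0.982) and Rab11fip2 (0.974) among 5079 candidates. Those closest to Ago1 were Lclat1 (0.998), Serpinb9e (0.991) and Itga1 (0.991) among 11871. These are the highest of many values over arrays that share the genotypes' differences, and they are a description.

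Of 54 listed partners of the small RNA machinery, 48 were measured, and those that changed rose. In MIWI -/- against MIWI +/-, 3 rose and none fell: Lin28a (0.77, SE 0.17), whose product blocks the processing of let-7 precursors, Srrt (0.69, SE 0.13), a cap-complex partner that helps process primary microRNAs, and Cnot1 (0.53, SE 0.11), the scaffold of the deadenylase complex that Argonautes recruit. Against the same controls, 5 rose and none fell in MIWI -/KI. These were Adar (1.02, SE 0.17), an enzyme that edits adenosines in double-stranded RNA, Lin28a (0.88), Hspa8 (0.81), a chaperone that takes part in loading Argonautes, Srrt (0.60) and Cnot1 (0.52). Gemin4 (0.74, SE 0.13), found in human Argonaute complexes, passed without against with a wild-type allele, together with those 5. The median over the 48 was 0.16 in both comparisons with MIWI +/-, beside 0.01 and 0 over all genes. These counts of 3, 5 and 6 stand beside 2.6%, 3.11% and 4.33% of all genes rising. When a fit held just the 4 arrays of its comparison, 0 passed against MIWI +/- in either genotype, and with array weights 7 passed in MIWI -/- and 2 in MIWI -/KI. Clusters averaged per gene gave 7 in MIWI -/-, and the filter on dim clusters gave 5. Without either MIWI +/- replicate 0 of the 48 passed in any of the 3 comparisons, and without either MIWI +/KI replicate the counts were 0, 1 and 0. Without either MIWI -/- replicate the count in MIWI -/- was 0. Without MIWI -/KI replicate 1 the counts were 7, 12 and 13, and without replicate 2 they were 7, 3 and 7. Lin28a also stands among the spermatogonia markers.

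Among 18 measured genes of other double-stranded RNA-binding proteins, Stau1, which guides the transport and decay of mRNAs, was the 1 that passed. Against MIWI +/-, its log2 fold change was 1.80 in MIWI -/- (SE 0.14, 3.47-fold, adjusted p = 0.000409) and 1.57 in MIWI -/KI (SE 0.14, 2.97-fold, adjusted p = 0.000888). Its difference between MIWI -/KI and MIWI +/KI was 1.04 (SE 0.14, adjusted p = 0.0142). That 1 rise among 18 stands beside 2.6% of all genes rising and 3.53% falling in MIWI -/-, and 3.11% and 3.12% in MIWI -/KI, each against MIWI +/-. The median log2 fold change of the 18 was 0.06 and 0.13 in these comparisons, beside 0.01 and 0 over all genes.

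The PIWI gene Piwil2 had intensities of 1099 and 1004 in MIWI -/-, 1013 and 1142 in MIWI -/KI, 628 and 662 in MIWI +/KI, and 549 and 506 in MIWI +/-. The rise of 0.99 in MIWI -/- against MIWI +/- (SE 0.14, adjusted p = 0.00585) was close in size to that of Ago2.

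The array also has clusters for 300 microRNA genes, 4 of them host transcripts, which read the RNA of the locus and not the mature microRNA. None passed in MIWI -/- against MIWI +/-, where 2.6% of all genes rose and 3.53% fell. Mir297b rose (1.30, SE 0.28, adjusted p = 0.0375) in MIWI -/KI against MIWI +/-, and there the host transcript Mir670hg fell (-1.39, SE 0.22, adjusted p = 0.0119). Mir297b had intensities of 54.6 and 45 in MIWI -/-, 180 and 148 in MIWI -/KI, 51.4 and 38 in MIWI +/KI, and 86.7 and 50.6 in MIWI +/-, so that the MIWI -/KI arrays alone stood high. Mir670hg lay between 39.5 and 130, so both clusters were below the lowest array median on some arrays. That 1 rise and 1 fall among 300 stand beside 3.11% of all genes rising and 3.12% falling. The median over the 300 was -0.04 in MIWI -/- and -0.05 in MIWI -/KI, beside 0.01 and 0 over all genes. The clusters of the microRNAs whose seed is shown above lay below the lowest array median, 66.6, on every array. Mir34b lay between 39.1 and 52.1, Mir449a between 43.7 and 59.4 and Mir449c between 49.4 and 64.3.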

How the data were processed

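Round spermatid RNA of 4 Miwi genotypes was hybridised to 8 Affymetrix arrays, with 2 for each genotype. The authors deposited 1 linear intensity per array and transcript cluster; RMA is named by the submitters' processing notes, without a version. In 8 cells of 8 clusters a whole number stood over 100 times above the median of the other arrays; these were treated as missing, and none was in a cluster of the machinery genes. Clusters were named through the platform annotation, checked by Entrez ID against RefSeq genes of GRCm38.p6: of 35512 clusters, 21789 had 1 symbol, 1621 several and 12102 none, and 21698 of the first matched. Cross-hybridisation between family members was not examined.

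Log2 intensities were fitted in limma 3.58.1 (R 4.3.3) with 1 mean per genotype; all 8 arrays entered, and variances were shrunk towards an intensity trend (3.976 prior beside 4 residual degrees of freedom). Two-sided p-values were adjusted after Benjamini and Hochberg across the 35512 clusters, and a gene passed at an adjusted p under 0.05. A fold change is the difference between genotype means of log2 intensity. The script was tested on simulated data. Genes and lists were chosen with earlier results of these data known. All 10 machinery genes are named. List genes are named where they passed against MIWI +/-, and calls in the other comparisons are given for only some of them. For each machinery gene called against MIWI +/-, the 3 genes of highest Pearson r are named. Alternatives were a replicate block, a filter on dim clusters (mean log2 of at least 5), quantile normalization again, the mean of a gene's clusters, only the groups compared, array weights, division of the 8 cells by 1000, and leaving out each array.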

Additional observations from a re-analysis of the deposited data

Results flagged for a closer look

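The second Ago2 cluster was singled out because its arrays moved in opposite directions under the 2 losses of the wild-type allele. Both MIWI -/- arrays (172 and 220) stood above both MIWI +/- arrays (123 and 125), and both MIWI -/KI arrays (146 and 145) stood below both MIWI +/KI arrays (160 and 171). The difference between these differences was -0.83 on the log2 scale (SE 0.24, adjusted p = 0.223 by limma), so it did not pass the test. On the first Ago2 cluster it was -0.34 (SE 0.28, adjusted p = 0.709).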

How the results depend on the processing

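Of 5 calls on machinery genes, 0 passed under every alternative, and none of the 5 changed direction. The count of 1 gene in MIWI -/- against MIWI +/- became 0 with quantile normalization again (Ago2 at 0.95, adjusted p = 0.0524) or only the groups compared in the fit, and 2 with clusters averaged per gene or with array weights. It ran between 0 and 2 with 1 array left out. The 2 in MIWI -/KI against MIWI +/- became 0 with only the groups compared and 1 with array weights, and ran between 0 and 3 with 1 array left out. The 2 without against with a wild-type allele ran between 0 and 4. In MIWI -/KI against MIWI +/KI the count of 0 ran between 0 and 1, and in MIWI +/KI against MIWI +/- it was 1 with array weights. Fewer arrays leave fewer degrees of freedom. The fit on gene means was adjusted over 19938 genes in place of 35512 clusters, also for genes with a single cluster. The cause of the other changes was not tested. With the replicate number as a block in limma, 1 gene passed without against with a wild-type allele, Ago2 (adjusted p = 0.0128). Ago1 was lost there (adjusted p = 0.0628), and no other count moved. Whether same-numbered samples were paired is not stated in the labels. Deviations of same-numbered arrays from their genotype means correlated at r between -0.26 and 0.30, which cannot decide it with 2 arrays per genotype.

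Signs changed for uncalled genes alone. In MIWI -/KI against MIWI -/-, Ago2 was -0.14 with the mean of its clusters, and ran between -0.07 and 0.37 with 1 array left out. In MIWI -/KI against MIWI +/KI, Xpo5 was -0.08 with quantile normalization again. With 1 array left out, values against MIWI +/- in MIWI -/- ran between -0.08 and 0.45 (Dicer1) and -0.39 and 0.08 (Prkra). In MIWI -/KI they ran between -0.39 and 0.16 (Drosha), -0.46 and 0.31 (Tarbp2) and -0.02 and 0.29 (Prkra). In MIWI -/KI against MIWI +/KI they ran between -0.01 and 0.58 (Ago3), -0.05 and 0.56 (Dicer1), -0.38 and 0.18 (Drosha), -0.53 and 0.24 (Tarbp2) and -0.03 and 0.08 (Xpo5). Without against with a wild-type allele they ran between -0.26 and 0.02 (Drosha) and -0.06 and 0.33 (Tarbp2).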
